A study of Mus musculus with 9 samples.

Results

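The small RNA content of the input, that is, of total RNA not selected with any antibody, was described across all small RNAs with an entry in the deposited table that compares an Ago2 RNA immunoprecipitation (RNA-IP) with this input. The input was 3 of the 9 libraries of the series, and its table listed 1825 of the 2049 small RNAs found in either of the 2 deposited tables. A second table compares an Sfpq RNA-IP with the same input and was used as a check. RNA-IP values were not used here.

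The study asked which small RNAs associate with Ago2, the Argonaute protein that carries miRNAs to their targets, and with Sfpq, a nuclear RNA-binding protein, and the input was the reference for both. The libraries were labelled as RAW 264.7, a virus-transformed mouse macrophage line, and no gene edit, transfection or stimulation was stated for them. The source label instead names a stem cell and the design text names P19, a mouse embryonal carcinoma line, so the markers of both were examined below. The labels number the libraries 1 to 3 and do not say whether they came from separate cultures. The library kit in the labels is not the one in the study's methods, and the reads came from a SOLiD sequencer.

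A miRNA is cut from a hairpin precursor as a short duplex, 1 strand of which is kept in an Argonaute protein while the other is mostly degraded. The kept strand pairs with target mRNAs mainly through its seed, the bases next to its 5′ end, so that miRNAs with an identical seed can share targets. Many hairpins lie close together and are transcribed as 1 precursor. The other classes in the table are fragments of longer RNAs with their own functions (tRNAs, rRNAs, and the snoRNAs that guide chemical modification of other RNAs) and piRNAs, which are best known from the germ line.

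The sequences below are those of the mature miRNAs that carried most of the input, grouped by seed, with bases 2 to 8 in capitals. They are RefSeq sequences of the mouse build GRCm38.p6, in which 475 of the 548 listed miRNAs were matched by name, 8 of them under a newer name with the letter a. The matched names held 96.5% of the miRNA signal. Among the 20 highest miRNAs, miR-30d-5p had no entry. The first group is the let-7 family, in the order of its input.
let-7c-5p: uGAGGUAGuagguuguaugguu
let-7i-5p: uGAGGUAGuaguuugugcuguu
let-7f-5p: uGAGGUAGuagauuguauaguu
let-7a-5p: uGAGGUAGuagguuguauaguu
let-7b-5p: uGAGGUAGuagguugugugguu
let-7d-5p: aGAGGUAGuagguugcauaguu
let-7g-5p: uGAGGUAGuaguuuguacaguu
miR-98-5p: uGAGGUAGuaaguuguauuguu
let-7e-5p: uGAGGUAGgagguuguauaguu

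The next groups in the order of their summed input are shown because, with let-7, they make up most of the seed content of these cells.
miR-221-3p: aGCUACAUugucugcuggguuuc
miR-222-3p: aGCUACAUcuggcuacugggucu
miR-92a-3p: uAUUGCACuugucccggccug
miR-25-3p: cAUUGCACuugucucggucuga
miR-21a-5p: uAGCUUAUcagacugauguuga
miR-26b-5p: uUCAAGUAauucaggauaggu
miR-26a-5p: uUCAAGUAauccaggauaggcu
miR-7a-5p: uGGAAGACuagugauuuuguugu
miR-181a-5p: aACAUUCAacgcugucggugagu
miR-146a-5p: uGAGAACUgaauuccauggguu
miR-103-3p: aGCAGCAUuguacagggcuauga
miR-182-5p: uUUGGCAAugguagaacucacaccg

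The deposited input value of each small RNA is 1 number for the 3 libraries together, called the input signal here. Low values are sums of whole multiples of 3 weights, as a mean of normalized read counts over 3 libraries would give, and the weights differ between the 2 tables, so that 2 values per RNA fix 3 whole read counts. All 1407 RNAs above 0 and up to 1000 gave exactly 1 such set of counts. These libraries are called A, B and C by the weight of 1 read (0.297, 0.402 and 0.517 of signal in the Ago2 table), because nothing ties them to the numbers 1 to 3. The 245 RNAs above 1000, which held 98.1% of the signal, could not be resolved in this way and are given as the authors' mean alone. If the 3 libraries held equal normalized totals, the signal came from about 8186187 reads in A, 6049640 in B and 4709857 in C. On that basis a signal of 20 stands for about 51.9 reads. A value of 0 allows up to 1.55 of signal (3 reads in the library of the heaviest read, 2.12e-05% of the total), and this limit and the 95% Wilson intervals below cover counting error only, since reads were amplified by PCR.

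The libraries were not alike in every class. Among 218 snoRNA entries at a signal of 20 to 1000, library A was the highest in 191, and the normalized values summed to 81143 in A, 21605 in B and 26665 in C. The same sums for 195 mature miRNAs were 39438, 46354 and 44157. For 109 tRNAs they were 27401, 30621 and 30538. These entries reach 1000 at most and do not stand for their class. An estimate that takes library C at its mean, used below, put the whole tRNA class at 1.30-fold in A over B. For 46 piRNAs they were 15763, 7783 and 14706, with library B the highest in only 2, so that B stood apart among these entries. The whole piRNA class was estimated at 1.04-fold in A over B, and its highest entry at a log2 ratio of -0.18. The spread between libraries, as the median coefficient of variation, was 19.8% for tRNAs, 20.9% for rRNAs, 36.7% for miRNAs, 60.2% for piRNAs and 82.8% for snoRNAs, against 7.71% to 10.8% from counting error alone. Library A was also the deepest by the estimate above, which takes equal normalized totals, and the part of depth in this was not tested. With library C at its mean, the miRNA class was estimated at 0.71-fold in A over B, so the totals may be unequal.

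**Figure D1:**
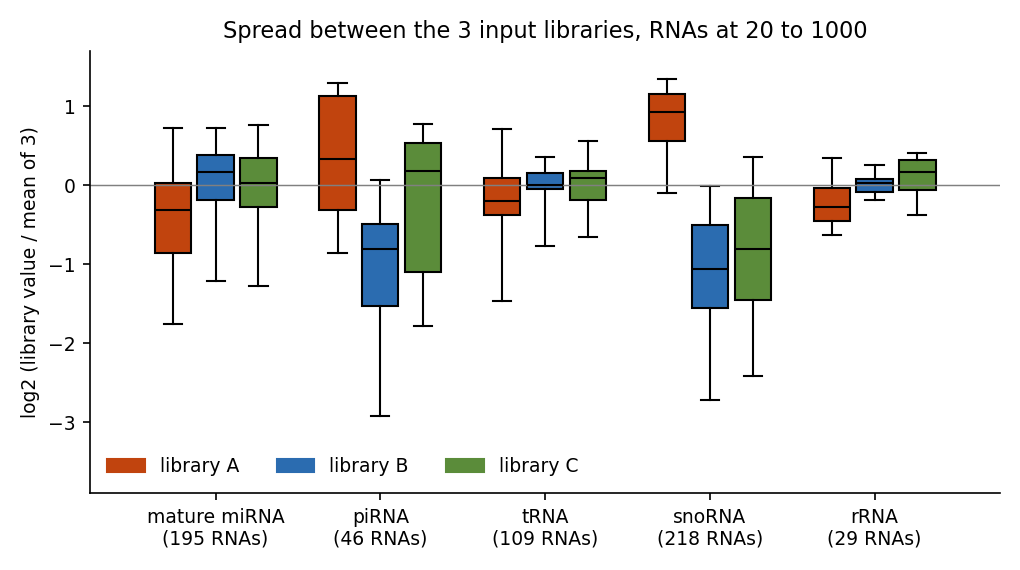
Log2 ratio of each library's normalized value to the mean of the 3 libraries (y axis) by class (x axis), for RNAs at a signal of 20 to 1000; boxes are quartiles with the median, whiskers the 5th and 95th percentiles. The snoRNA boxes of library A lie above 0 and those of B and C below it, with medians of 0.93, -1.06 and -0.81.

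Mature miRNAs were 30.03% of the entries and 84.6% of the signal (95% interval 84.5 to 84.6%), in 548 entries that reached 1044580. The piRNA class followed with 7.37% of the signal in 453 entries, and the tRNA class with 6.11% in 221 entries. The snoRNA class was 28.4% of the entries and 1.25% of the signal, and the 84 rRNA entries held 0.723%. The class shares differed between libraries by more than the counting interval. Estimated with library C at its mean, the miRNA share was 80.4% in A and 87.8% in B. In the same order, the piRNA share was 8.62% and 6.396%, the tRNA share 7.91% and 4.71%, and the snoRNA share 2.26% and 0.466%. Both snoRNA shares are rough, because library C was not at the mean for the solved snoRNAs (median log2 ratio -0.81). The classes therefore differed in level per entry as well. The median entry was 310 in the tRNA class, 28.8 in the miRNA class, 15.5 in the rRNA class, 12.2 in the snoRNA class and 1.19 in the piRNA class. Reads that fit several entries could be counted at each of them, and how they were counted is not given in the sources used here.

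**Figure D2:**
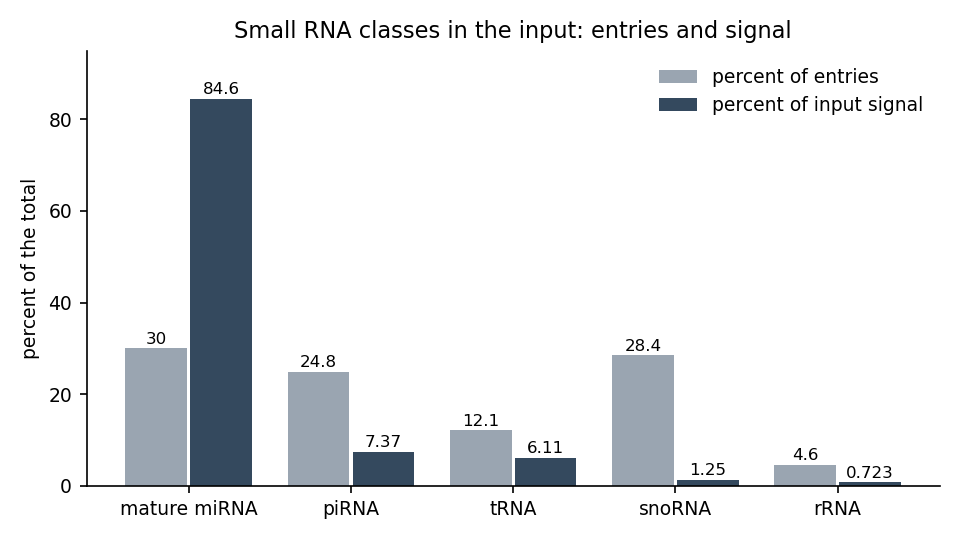
Percent of entries (grey) and percent of input signal (dark) in each small RNA class, as bars from 0 with the value above each. Mature miRNAs hold 84.6% of the signal from 30.03% of the entries, and snoRNAs 1.25% from 28.4%.

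Few miRNAs carried most of the miRNA signal. The 5 highest made up 52.0% of it, the 10 highest 74.3% and the 20 highest 85.3%, so that 28 miRNAs made up 90% and 90 made up 99%. Of the 548, 103 were above 1000, 195 lay between 20 and 1000, 195 were above 0 and under 20, and 55 were at 0. The 195 miRNAs under 20 together held 0.0205% of the miRNA signal. The values above 0 covered 6.55 powers of 10, and the 20 highest miRNAs were the same in both tables.

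**Figure D3:**
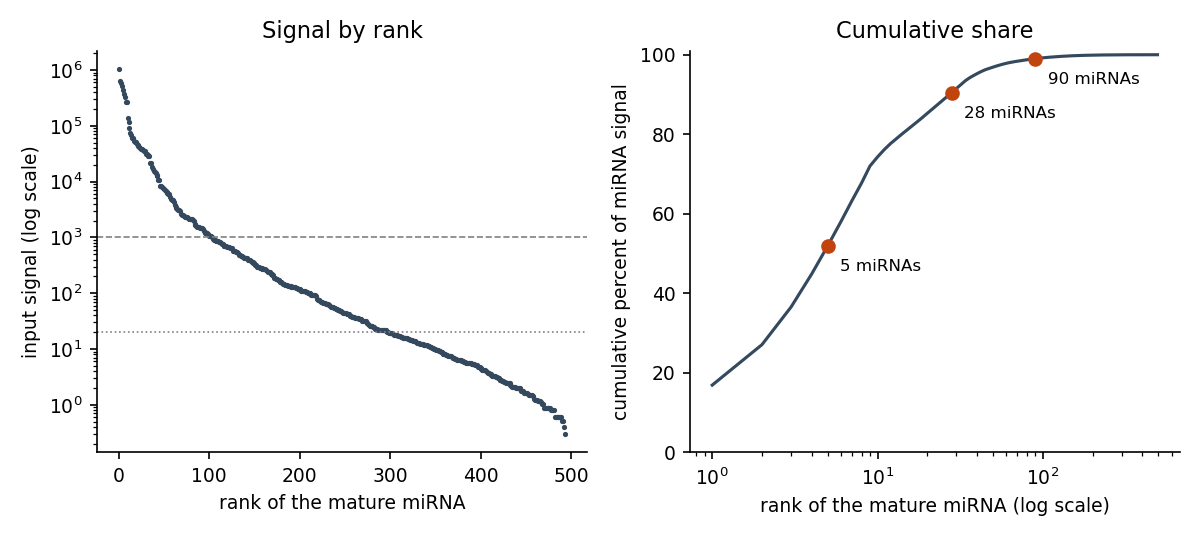
Input signal of each mature miRNA above 0 by rank (left, log y axis, with dashed and dotted lines at 1000 and 20) and the cumulative percent of miRNA signal by rank (right, log x axis). The points mark the 5, 28 and 90 miRNAs that reach 50%, 90% and 99%.

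Outside the let-7 family, the highest entry was miR-92a-3p at 628142, which ranked below let-7c-5p alone, followed by miR-221-3p at 513446, miR-222-3p at 272905 and miR-21a-5p at 265164. miR-221 and miR-222 are known to repress the cell cycle inhibitor Cdkn1b, miR-92a belongs to the growth-promoting miR-17 cluster, and miR-21a is abundant in activated myeloid cells. miR-7a-5p, at rank 11, was at 115429, and miR-26b-5p, at rank 13, was at 74981. The ranks from 14 to 20 held miR-30d-5p (68279), miR-98-5p (61319), miR-181a-5p (59366), miR-146a-5p (52710), miR-26a-5p (52075), miR-182-5p (50928) and miR-103-3p (47965). From rank 13 to rank 20 the step from each miRNA to the next was at most 1.13-fold, and without a value per library it cannot be said whether neighbours in this order differ.

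For these abundant miRNAs the 2 tables still allow an estimate of library A against library B if library C is taken to be at its mean. That estimate put library B higher for 19 of the 20 highest miRNAs, with log2 ratios of A to B from -0.72 for miR-21a-5p to 0.39 for miR-146a-5p and a median of -0.40. This was not particular to them, since B was higher for 97 of the 103 miRNAs above 1000, at a median of -0.41. Over 549 RNAs whose counts were solved, the estimate missed the solved log2 ratio by a median of 0.0957, and by 1.0203 at the 90th percentile, so single values are weak. Solved RNAs for which it gave no ratio, such as miR-3096b-3p and miR-5121, were left out, so these errors do not cover its failures. Among the 195 solved miRNAs at 20 to 1000, the 3 libraries lay within 2-fold of each other for 93, library A was at most 1/2 of both others for 36, and it was at least 2-fold above both for 11. miR-132-3p, induced in stimulated macrophages, was one of the 36, with 296 in A, 1071 in B and 1096 in C. miR-322-5p, of the miR-15 seed group, had the smallest spread of the solved miRNAs at 100 or more, with 420 in A, 444 in B and 406 in C.

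miRNAs with a catalogue number of 1900 or above, which were named late, were examined as a group of 169 entries. They held 1.06% of the miRNA signal, with a median of 6.43 against 93.4 for the 359 lower-numbered entries, and 24 of them were at 0 against 31 of the others. Only 5 were above 1000, namely miR-5099 (40757), miR-5105 (6554), miR-5109 (6041), miR-5115 (2121) and miR-1981-5p (2120). Of the 195 solved miRNAs described above, 47 were in this group. Of the 11 solved miRNAs at least 2-fold higher in library A than in both others, 9 were in this group. The other direction was present too, since 5 of the 47 were among the 36 with library A well below both others. Both arms of miR-3096a, of miR-3096b and of miR-5117 were among the 9, so these are not 9 separate cases. miR-3096b-5p was at 1857 in A, 239 in B and 229 in C. miR-5117-5p was at 1893, 405 and 327. Those 9 differed in the direction in which the snoRNAs differed between the libraries.

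Grouped by identical bases 2 to 8, the 475 miRNAs with a sequence fell into 397 seeds, of which 47 had more than 1 member and held 90.6% of all miRNA signal. The 5 highest seeds held 80.1% and the 10 highest 86.9%. The let-7 group, known to restrain growth and stem cell genes, had 10 members, all above 20. Within it let-7c-5p was 33.8% of the group, let-7i-5p was at 584611, let-7f-5p at 437044, let-7a-5p at 372425 and let-7b-5p at 326610, while let-7d-5p (141023), let-7g-5p (93022), miR-98-5p (61319) and let-7e-5p (31726) were lower. The tenth member, let-7k, was at 55.0 (42.8, 55.5 and 66.6 in A, B and C). As the sequences above show, the members differ at few bases, so that reads of 1 may have been counted for another. let-7j (16781) shares bases 2 to 7 with them and stood in a seed of its own over bases 2 to 8.

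The second seed had only miR-221-3p and miR-222-3p and held 12.7% of the miRNA signal, with miR-221-3p at 65.3% of the pair. The third, at 10.9%, had 4 members, and miR-92a-3p was 93.8% of it. Its members miR-25-3p (41675), miR-92b-3p (146) and miR-32-5p (14.3) spanned more than 3 powers of 10 with the same seed. miR-92b-3p was at 177, 138 and 122 in the 3 libraries, and miR-32-5p at 3.57, 14.5 and 24.8. The miR-21a seed (4.30%) and the miR-7a seed (1.87%) were each above 99% from 1 member. The partner of miR-21a-5p was miR-21c at 58.3, and that of miR-7a-5p was miR-7b-5p at 120.

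Other seeds were shared more evenly. In the miR-26 group (2.06%) miR-26b-5p was 59.0%, in the miR-181 group (1.72%) miR-181a-5p was 55.8%, and in the miR-146 group (1.47%) miR-146a-5p was 58.0%. miR-181b-5p was at 45444, while miR-181d-5p (1460) and miR-181c-5p (116) were far lower. The miR-103 group (0.902%) was 86.2% miR-103-3p, with miR-107-3p at 7703. miR-182-5p, alone in its seed, closed the 10 highest with 0.825%.

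**Figure D4:**
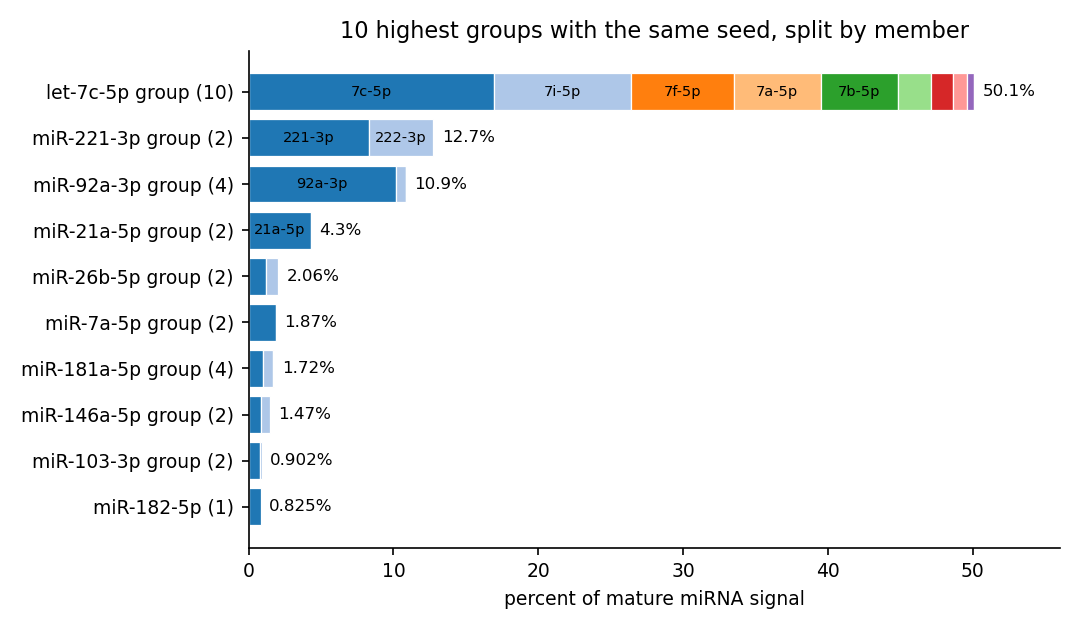
The 10 seed groups with the highest input, as percent of mature miRNA signal (bars from 0), each bar split by member and labelled with its highest member and, in parentheses, its number of members. The let-7 bar is divided among many members, while the miR-92a, miR-21a and miR-7a bars come almost wholly from 1.

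Hairpins on the same strand within 10 kb of each other were joined into clusters, with coordinates of GRCm38.p6, and the signal of a miRNA made by several hairpins was divided evenly among them. The 55 clusters so formed held 72.1% of the miRNA signal, and 50 of them were above 0. The 10 highest held 65.7%. This division matters, because the 32 miRNAs with more than 1 hairpin held 40.6% of the signal and their reads do not show the hairpin of origin.

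The let-7b and let-7c-2 hairpins (chr15:85706603-85707403, in exons of the noncoding gene Lncppara) came first at 13.8% of the miRNA signal. Counted in full rather than divided, let-7c-5p would raise them to 22.2%, and left out, it would lower them to 5.29%. The miR-221 and miR-222 pair (chrX:19146294-19146971, between annotated genes) came next at 12.8%, whichever way the multi-copy miRNAs were counted, since each has 1 hairpin. It was then the highest cluster once multi-copy miRNAs were left out. The let-7a-1, let-7f-1 and let-7d hairpins (chr13:48536012-48538272, in exons of the noncoding gene 6720427I07Rik) held 11.9%, with let-7a-5p in full at let-7a-1, where RefSeq lists it by name. The let-7a-2 hairpin holds the same sequence. With miRNAs also placed at every hairpin that holds their sequence, a choice made after seeing the data, the cluster held 8.88%, let-7a-2 with miR-100 rose from 0.00220% to 3.02%, in place of miR-182 among the 10 highest, and 40 multi-hairpin miRNAs held 46.7%.

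The miR-99a and let-7c-1 pair (chr16:77598936-77599750, with let-7c-1 in an intron of Mir99ahg) held 8.58%, of which let-7c-5p was 98.6% and miR-99a-5p 6981. The miR-17 to miR-92a-1 cluster (chr14:115043671-115044506, in Mir17hg) held 5.50%. Its 6 hairpins are cut from 1 transcript, yet their miRNAs were unequal: with miR-92a-3p divided between its 2 hairpins at 314071, miR-17-5p was at 10733, miR-20a-5p at 7522, miR-19b-3p at 1557, miR-19a-3p at 1228 and miR-18a-5p at 695. Without multi-copy miRNAs the cluster held 0.384%. The paralogous miR-106a to miR-363 cluster (chrX:52741693-52742567) held 5.11%, of which miR-92a-3p was 99.5%. Its members made nowhere else were near 0, with miR-106a-5p at 14.7, miR-20b-5p at 10.9 and miR-18b-5p at 1.29. How the miR-92a-3p reads divide between the clusters cannot be told apart in these values.

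The miR-98 and let-7f-2 pair (chrX:151912346-151913321, in an intron of the ubiquitin ligase gene Huwe1) held 4.53%. The miR-106b, miR-93 and miR-25 cluster (chr5:138165321-138165818, with miR-25 in an exon of the replication gene Mcm7) held 1.33%, with miR-25-3p at 41675, miR-93-5p at 31393, miR-106b-3p at 7883 and miR-106b-5p at 540. miR-106b-5p, which shares its seed with miR-17-5p, was thus the lower arm of its hairpin. miR-30d with miR-30b (chr15:68337415-68341289, 1.13%) and miR-182, miR-183 and miR-96 (chr6:30165918-30169737, 1.12%) completed the 10 highest. In the latter, miR-182-5p (50928) and miR-183-5p (17936) were high while miR-96-5p, from the same cluster, was at 37.8.

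Where both arms of a hairpin had an entry, their input was compared, which gives the share kept from each side of the duplex. There were 183 such pairs, and 157 had a sum of 20 or more. The 5p arm was higher in 93 and the 3p arm in 64, and the lower arm was a median of 2.52% of the sum. Among the 86 pairs at 1000 or more the median was 0.678%, with 49 pairs under 1% and 11 over 20%. For 74 pairs with both arms solved, 66 had the same arm higher in all 3 libraries.

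The highest pairs were among the most uneven. The let-7 hairpins kept the 5p arm at 99.98% for let-7c, more than 99.99% for let-7i (95% interval 99.9951 to 99.9970%) and 98.4% for let-7d, whose 3p arm reached 2305. The other let-7 passenger arms were low, with 22.3 for let-7i-3p, 32.2 for let-7b-3p, 74.4 for let-7a-1-3p and 0.594 for let-7g-3p. The normalized values of let-7i-3p were 4.46 in A, 47.1 in B and 15.5 in C. miR-92a, miR-221 and miR-222 kept the 3p arm, with 5p shares of 0.243%, 0.280% and 0.208%. For miR-92a, made by 2 hairpins, the 5p entry is that of miR-92a-1 alone. Lower arms were small in the next pairs as well, where miR-21a-3p was 0.345% of its pair, miR-7a-1-3p 0.232%, miR-30d-3p 0.162% and miR-26b-3p 0.0337%. The miR-7a pair also has 2 hairpins, and its 3p entry is named for 1 of them. Over the 15 highest pairs the lower arm ran from 0.000639% for let-7g to 1.61% for let-7d.

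At sums of 1000 or more, the pairs with the smallest 5p share were miR-103 and miR-421, whose 5p arms were at 0 (95% upper limits 0.00309% and 0.0632%), miR-107 (0.0116%), miR-320 (0.0249%) and miR-27b (0.0916%). miR-103-3p is made by 2 hairpins, and its 5p entry is miR-103-2-5p alone, so its share is no measure of 1 hairpin. The most 5p-sided were miR-146a, whose 3p arm was at 0 beside 52710 for its 5p arm, let-7g, let-7i, miR-98 and let-7f. In all, 8 of the 157 pairs had 1 arm at 0.

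A group of 11 abundant pairs, all but miR-5117 with 1 hairpin in the reference, had both arms in amounts within 20 to 80%. The arms of the 2 highest are shown with their seeds in capitals, because the arms of 1 hairpin then bring 2 different seeds into the cell.
miR-423-5p: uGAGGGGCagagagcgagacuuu
miR-423-3p: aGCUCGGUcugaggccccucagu
miR-30e-5p: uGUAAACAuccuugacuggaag
miR-30e-3p: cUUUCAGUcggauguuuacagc

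miR-423, in an intron of Nsrp1, was at 8274 on the 5p arm and 13191 on the 3p arm, a 5p share of 38.5% (95% interval 38.1 to 39.0%). miR-30e, in an intron of Nfyc, was at 6140 and 3073 (66.6%, 66.0 to 67.2%). The 5p share was 71.4% for miR-674, 75.9% for miR-125a, 78.5% for miR-342 and 69.1% for miR-5117, and it was 34.2% for miR-27a, 29.6% for miR-139 and 35.3% for miR-28a. The counting intervals leave out the differences between libraries. For miR-18a, of the miR-17 cluster, the 5p share was 61.0%, 61.6% and 61.6% in A, B and C, but for miR-30b it was 54.4%, 32.0% and 25.4%, so that its higher arm changed with the library. miR-5117 was at 70.8%, 70.0% and 59.8%.

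**Figure D5:**
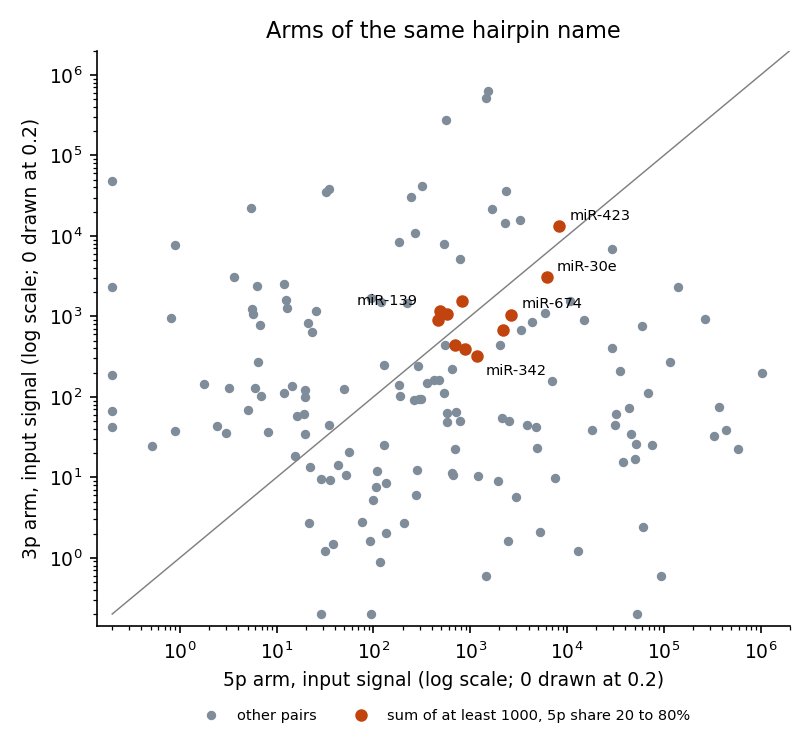
Input signal of the 5p arm (x axis) and the 3p arm (y axis) of 157 pairs with a sum of at least 20, both on log scales, with values of 0 drawn at 0.2 and a line at equal arms. The 11 larger points are pairs at 1000 or more with a 5p share of 20 to 80%, and the abundant pairs of let-7, miR-92a, miR-221 and miR-222 lie far from the line.

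The first base of the mature sequence, which Argonaute proteins are known to favour as U, was counted by level. U was first in 45 of 89 miRNAs at 1000 or more (50.6%), in 51 of 166 at 20 to 1000 (30.7%), in 56 of 175 under 20 (32.0%) and in 20 of 45 at 0 (44.4%), and the U-first sequences held 76.3% of the signal with a sequence, or 73.7% of all miRNA signal. G was first in 4 of the 89 highest. Among 84 pairs from 1 hairpin with a lower arm under 20%, U was first in the higher arm in 44 and in the lower arm in 15. In 37 of them U stood first in the higher arm alone, and in 8 in the lower arm alone. The miRNAs at 0 entered the table through the Ago2 RNA-IP, so their share is no measure of the input. These are counts over sequences of which many are related, and they carry no test.

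Markers of cell types were then read in the input. Of 12 macrophage and myeloid miRNAs, 9 were at 20 or more and 2, both arms of miR-511, were at 0. The list was led by miR-21a-5p and by the miR-146 pair, which dampens NF-kB signalling (miR-146a-5p, 52710, and miR-146b-5p, 38144), and miR-155-5p, induced by inflammatory stimuli, was at 12866. The blood-restricted miR-142 was at 4307 on its 5p arm and at 846 on its 3p arm (670, 1086 and 783 in A, B and C). miR-223, abundant in granulocytes and monocytes, was low, with 103 for its 3p arm (141, 80.8 and 88.3) and 188 for its 5p arm (261, 163 and 141). miR-147-3p was at 2.24.

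Of 15 miRNAs of pluripotent cells, the 2 with an entry, miR-291a-5p and miR-302d-3p, were at 0, and the other 13 had no entry in either table. The 12 macrophage and myeloid markers were thus above 0 except for the arms of miR-511, and no listed pluripotency marker had reads. Being above 0 was not particular to the macrophage and myeloid list. All epithelial markers but miR-205-5p, and all liver and lymphoid markers with an entry, were above 0 too. The macrophage and myeloid list held 6.08% of the miRNA signal, of which miR-21a-5p alone was 4.30%. Of other lineages, the muscle list had 1 member above 0 (miR-1a-3p at 0.892), and of the erythroid list miR-451a was at 0 and miR-486-5p at 31.7. The neuronal list was led by miR-128-3p (1715), with miR-9-5p at 93.6 (56.2, 82.0 and 143), miR-129-5p at 3.78 and miR-219-5p at 0. Among epithelial miRNAs, miR-200c-3p was at 433.4 (406, 430 and 465), miR-141-3p at 131 and miR-203-3p at 51.2, while miR-200a-3p, miR-200b-3p and miR-429-3p were at 17.6, 11.8 and 2.97 and miR-205-5p was at 0. miR-192-5p of the liver list was at 1014 and miR-194-5p at 129. miR-10a-5p, a mesenchymal and endothelial marker, was at 35304 with its sister miR-10b-5p at 45.2 (48.1, 51.9 and 35.6), and miR-199a-3p was at 775 (1086, 672 and 567) while miR-199a-5p was at 6.77, miR-126-3p at 9.48 and miR-143-3p at 0. The lymphoid list was miR-181a-5p (59366) and miR-181b-5p (45444), since miR-150-5p had no entry. miR-181a-5p was above every macrophage and myeloid marker but miR-21a-5p.

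Among the tRNA entries, 183 of 221 were named from RefSeq by position, and these held 95.4% of the tRNA signal. Glycine tRNAs held 29.5% of it, nearly all with the anticodon GCC (28.3%), and glutamate tRNAs 21.1%, of which the anticodon CTC was 15.3%. Valine (12.6%), proline (8.05%) and histidine (5.97%) followed, while phenylalanine was at 0.0293%. These shares count named entries only, and the highest entry without a name (chr3:96311254-96311324) was at 11191. Gly-GCC and Glu-CTC tRNAs are known sources of tRNA fragments. The 3 Glu-CTC copies were at 22981 (chr13:21160785-21160856), 22975 (chr3:96501447-96501518) and 22341 (chr1:171103043-171103114), and the 7 Gly-GCC copies ran from 14009 to 21318, led by the copies at chr3:84229011-84229081 (21318) and chr8:111062561-111062631 (21204). Copies could share a value, as 3 Gly-GCC copies on chromosome 1 at 14009 did, and 32 tRNA entries had a value that at least 1 other entry had exactly. The number of copies then enters the class total if a read was counted at each. The 9 mitochondrial tRNAs held 1.04% of the class. None of them was named, so they are outside the amino acid shares.

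The piRNA class rested on few entries. mmu_piR_000691 alone, at 273238, was 50.8% of it, the entry that joins mmu_piR_039147, mmu_piR_039114 and mmu_piR_000159 was at 74296 (13.8%), and the next were mmu_piR_000935 at 24200, mmu_piR_038323 at 15469 and mmu_piR_009084 at 15175. The 10 highest of the 453 made up 83.8%, and 83 reached 20. Among the solved entries, mmu_piR_000705 was at 1947 in A, 241 in B and 234 in C, and mmu_piR_002945 at 797, 556 and 1254, so that single piRNA entries differed between libraries in more than 1 way. The piRNA names were given by the authors' annotation, and their sequences were not used here.

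The class filed as snoRNA held several kinds of RNA. Box C/D snoRNAs named SNORD, which guide 2′-O-methylation, made up 47.6% of its signal in 126 entries. Spliceosomal RNAs followed with 20.5% in 170 entries. Entries of other names, snoU97 among them, had 13.4% in 31, and U3 and U8 had 8.19% in 15. Box H/ACA snoRNAs named SNORA, which guide pseudouridylation, had 7.36% in 159, and entries named SCARNA had 2.98% in 18. The highest entries were snoU97 (6389), a U1 entry on the X chromosome (4622), a pair of U1 copies on chromosome 3 with the same value (4396) and U8 (3001). The excess of library A was not even among these kinds. Of 100 solved SNORD entries A was the highest in 99, at a median of 6.04-fold over B, against 43 of 49 SNORA entries at 2.40-fold and 11 of 28 spliceosomal entries at 1.31-fold. In between were 20 of 21 entries of other names at 4.14-fold, all 9 of U3 and U8 at 2.43-fold and 9 of 11 SCARNA entries at 1.57-fold. The SNORD14 copy at chr9:40803995-40804080 was at 2343 in A, 185 in B and 222 in C, while the spliceosomal U11 at chr4:132270080-132270213 was at 798, 912 and 1215. Without library A, the median of the solved SNORD entries was 71.4 instead of 177, and that of the SNORA entries 34.1 instead of 48.0.

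The rRNA class had 82 entries for 5S rRNA, with 56.7% of its signal, 1 for 5.8S rRNA at 12337 and 1 for the mitochondrial small subunit (chrM:2-348) at 10514. The 5S copies ran up to 6465 (chr8:123593071-123593189), followed by those at chr1:37005439-37005557 (2877) and chr3:88906510-88906628 (2748), with a median of 13.3. Among 29 solved entries the coefficient of variation between libraries ran from 4.19% to 123%, with the median of 20.9% given above. The copy at chr3:39635964-39636082 was at 511 in A, 503.1 in B and 590 in C, and that at chr8:123554060-123554178 at 555, 722 and 936.

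The table also listed RNAs at 0 in the input, which entered it through the RNA-IP that it compares. There were 173 among the 1825 entries, of which 108 were piRNAs (23.8% of that class), 55 miRNAs (10.04%), 7 snoRNAs, 3 tRNAs and no rRNA. The 110 RNAs listed in the Ago2 table alone and the 224 listed in the Sfpq table alone were all at 0. Detection was also uneven just above 0. Of 390 solved miRNAs, 251 had reads in all 3 libraries, 64 in 2 and 75 in 1, whereas of 308 solved piRNAs only 73 had reads in all 3 and 198 in 1. A single read stood behind 4 of the miRNA entries and 34 of the piRNA entries.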

How the data were processed

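The 3 input libraries were sequenced by the submitters as small RNA. Per the study's methods, LifeScope 2.5.1 mapped the reads and the web server omiRas mapped, normalized and compared them; which of them made the deposited values is not given in the sources used here. The tool cutadapt and the build mm10 are listed, with no role, in the submitters' processing notes. The authors deposited the input as a signal, 1 normalized value per small RNA pooled over the 3 libraries, in each of 2 comparison tables. Their RNA-IP columns, their own comparison columns (log2 ratios, p-values and false discovery rates) and 3 lists past a background limit were not used here. No analysed column belonged to another series (0 columns).

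Shares, ranks and sums were computed from the input of the Ago2 table with Python 3.11.15, pandas 2.3.3, NumPy 2.4.6 and SciPy 1.17.1, and drawn with matplotlib 3.10.9. Whole reads per library were solved from the 6 significant digits of both tables (tolerance 1.5 times 0.5 of the last digit) for values up to 1000, after the solver was tested on simulated data. Seeds were bases 2 to 8 of RefSeq sequences. Clusters joined hairpins within 10 kb. Genomic context came from GENCODE M21, where exon means an exon of at least 1 transcript. Intervals took the signal as reads of evenly filled libraries.

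Named were the 20 highest miRNAs, the 5 highest entries of each other class, the 10 highest seed groups and clusters, the 15 highest arm pairs, the balanced and the most uneven pairs at 1000 or more, all cell type markers, and high-number miRNAs at 1000 or more. Solved RNAs named beside them were chosen after their values were seen. The members and lists were chosen with earlier results of these data known. With 1 pooled value per RNA no test was run. Alternatives changed the table, the minimum, the denominator, the seed, the cluster rules and the libraries.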

Additional observations from a re-analysis of the deposited data

How the results depend on the processing

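No paired analysis was possible because the input was taken alone and its pooled values carry no replicate number. Of 53 alternative values of 14 results, 30 stayed within the spread used for them and 23 moved. That spread differed between results, so the 2 counts are no measure of how firm the results are. A miRNA share of 84.66% against 84.55% counted as moved, while 81 miRNAs at 0 without library B, against 55, did not. With the Sfpq table the class shares were 84.7% for miRNA, 7.34% for piRNA, 6.06% for tRNA and 1.22% for snoRNA, and the 10 highest miRNAs held 74.4%. At a minimum of 20, miRNAs held 84.58% and snoRNAs 1.23%. Chosen after seeing the data, the estimates with library C at its mean gave, in library A and library B in turn, 80.4% and 87.8% for miRNA, 8.62% and 6.396% for piRNA, 7.91% and 4.71% for tRNA, 2.26% and 0.466% for snoRNA and 0.823% and 0.646% for rRNA. The snoRNA estimates are rough, since library C was below the mean for the solved snoRNAs. Of all small RNAs, the 10 highest miRNAs held 62.8%. With bases 2 to 7 as the seed, the let-7 group held 50.4%. The highest cluster held 22.2% with multi-copy miRNAs in full and 12.8%, then miR-221 with miR-222, without them; with hairpins also matched by sequence it stayed at 13.8%. The median lower arm was 1.65% at a minimum of 200. Leaving out each library in turn, also chosen after seeing the data, put 71 to 88 miRNAs at 0 instead of 55, the highest without library A, and kept 43 to 45 solved pairs higher on the 5p arm against 44. The order of abundant miRNAs is limited by the lack of a value per library above 1000.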
